A study of Drosophila melanogaster with 42 samples.

Results

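The gene yki encodes Yorkie, the transcriptional coactivator at the end of the Hippo pathway, and sd, Tgi, mask and Wbp2 encode 4 of the proteins that work with Yorkie in the nucleus. These 5 genes were taken by symbol from a table of 17208 genes and followed through RNA-seq libraries of Drosophila wing discs, the larval tissue that forms the adult wing and dorsal thorax. The mutants carried changes in the gene fat (ft), whose product is a large cadherin that acts upstream of Hippo signalling and of planar cell polarity. On the NovaSeq X Plus these were Fd5-5 (n = 2), delta HpoC (n = 5), delta HpoN+PH (n = 4), delta PCP (n = 5) and delta D (n = 3), with WT (n = 2). On the NovaSeq 6000 they were delta A, delta B and delta E with 4 libraries each, delta C and delta F with 3 each, and WT (n = 3). All larvae were in the third instar, and the library names give the WT as w1118.csvd111. The labels call HpoC, HpoN+PH and PCP functional domains and A to F conserved regions, and they do not say which lesion Fd5-5 is. No mutant was run on both sequencers, so each was compared with the WT of its own sequencer, and the 5 mutants of a sequencer share that WT. The labels do not say that replicates came from separate animals, so the p-values measure the spread between these libraries, which may be technical.

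When the Hippo kinases Hpo and Wts are active, Yorkie is phosphorylated and held in the cytoplasm, and when they are not, it enters the nucleus. Yorkie does not bind DNA by itself and reaches its targets mainly through Scalloped (Sd), the TEAD-family DNA-binding protein that also pairs with Vestigial in the wing. Tgi, which carries Tondu motifs, occupies Sd in the absence of Yorkie and represses the same targets, while Mask, a long ankyrin-repeat and KH-domain protein, and Wbp2, a partner of the Yorkie WW domains, assist Yorkie. Control of Yorkie by Fat is known mainly at the level of the protein, so the levels below are of RNA alone.

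Counts per library ran from 19538216 to 48392408. Estimated counts on the 46 symbols that contain rRNA made up 5.11 to 17.4% of the counts in 21 libraries, called here the high class, and 0.792 to 1.68% in the other 21, the low class. The division was drawn at 3%. Delta A, delta C, delta F and the WT of the X Plus held high-class libraries only, Fd5-5, delta D and the WT of the 6000 low-class libraries only, and the other 5 groups held both. By the mean Spearman rho over genes, 17 libraries were closer to another group of their sequencer than to their own, among them all of HpoC, delta B and delta E, and 4 of the 17 were the only library of their rRNA class in their group. PCP library 5 had a rho of 0.989 with WT and 0.919 with PCP, delta B library 4 one of 0.983 with WT and 0.919 with delta B, delta E library 4 one of 0.994 with delta F and 0.911 with delta E, and HpoN+PH library 1 one of 0.955 with HpoC and 0.926 with HpoN+PH. RNA of ft was read in every library, at 641 ± 69.7 CPM (counts relative to the TMM-scaled library size) in Fd5-5 and 349 ± 30.4 CPM in WT on the X Plus (SD, n = 2 each), and at 236 to 358 CPM as the mean of delta A, B, C and F, 465 CPM in delta E and 577 CPM in WT on the 6000. A gene-level count does not show an internal deletion, so it does not check the labels. All 8 wing disc epithelium markers were read, with summed levels of 659 to 2893 CPM over the libraries, with 659 to 1362 CPM in delta A, C and F and 855 to 961 CPM in the WT of the X Plus, which are of the high class, and 1949 to 2581 CPM in Fd5-5, delta D and the WT of the 6000, which are of the low class. The 4 differentiated muscle markers summed to 518 and 970 CPM in the WT libraries of the X Plus, 264 to 459 CPM in delta A and 11.4 to 397 CPM in every other group. The 4 fat body markers summed to 1.39 to 12353 CPM over the libraries, with 15.5 to 12353 CPM inside PCP and 531 to 9787 CPM inside delta A. The 4 hemocyte markers summed to 101 to 1478 CPM and the 4 salivary gland markers to 0 to 188 CPM. In bulk tissue, fewer cells of a type and less RNA per cell cannot be told apart.

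On genome release 6, yki (FBgn0034970) lies on the minus strand of chromosome 2R, from 24065975 to 24068485. On plus strands lie sd (FBgn0003345) on chromosome X from 15804370 to 15827682, Tgi (FBgn0036373) on 3L from 13486797 to 13502492, mask (FBgn0043884) on 3R from 24230562 to 24250248, and Wbp2 (FBgn0036318) on 3L from 12850165 to 12853169. Exons of mask overlap those of lncRNA:CR44092 on its own strand and lncRNA:CR45217 on the other, and whether counting used strand is not given in the sources used here, so reads shared with these genes cannot be set apart. The longest transcript of mask has 14423 bases, that of sd 6005, and those of Tgi, Wbp2 and yki 2045, 1758 and 1525. The lowest count in any library was 99 for Tgi, 404 for yki, 793 for Wbp2, 3436 for mask and 6969 for sd.

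Per kilobase of the longest transcript, sd was the most abundant of the 5 genes in both WT groups. In the WT of the X Plus sd was at 91.4 CPM per kb, followed by Wbp2 at 28.5, yki at 15.6, mask at 13.9 and Tgi at 2.68 CPM per kb. In the WT of the 6000 sd was at 93.8 CPM per kb, and the order below it differed, with mask at 65.2, yki at 51.9, Tgi at 40.6 and Wbp2 at 36.9 CPM per kb. Over the 12 group means the range of the log2 level was 4.27 for Tgi, 3.22 for mask, 2.78 for yki, 1.22 for sd and 0.60 for Wbp2. Of the 11294 genes tested in all libraries, 93.2% had a smaller range than Tgi and 7.88% a smaller one than Wbp2, so the set runs from a strongly varying gene to one of the steadiest.

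**Figure D1:**
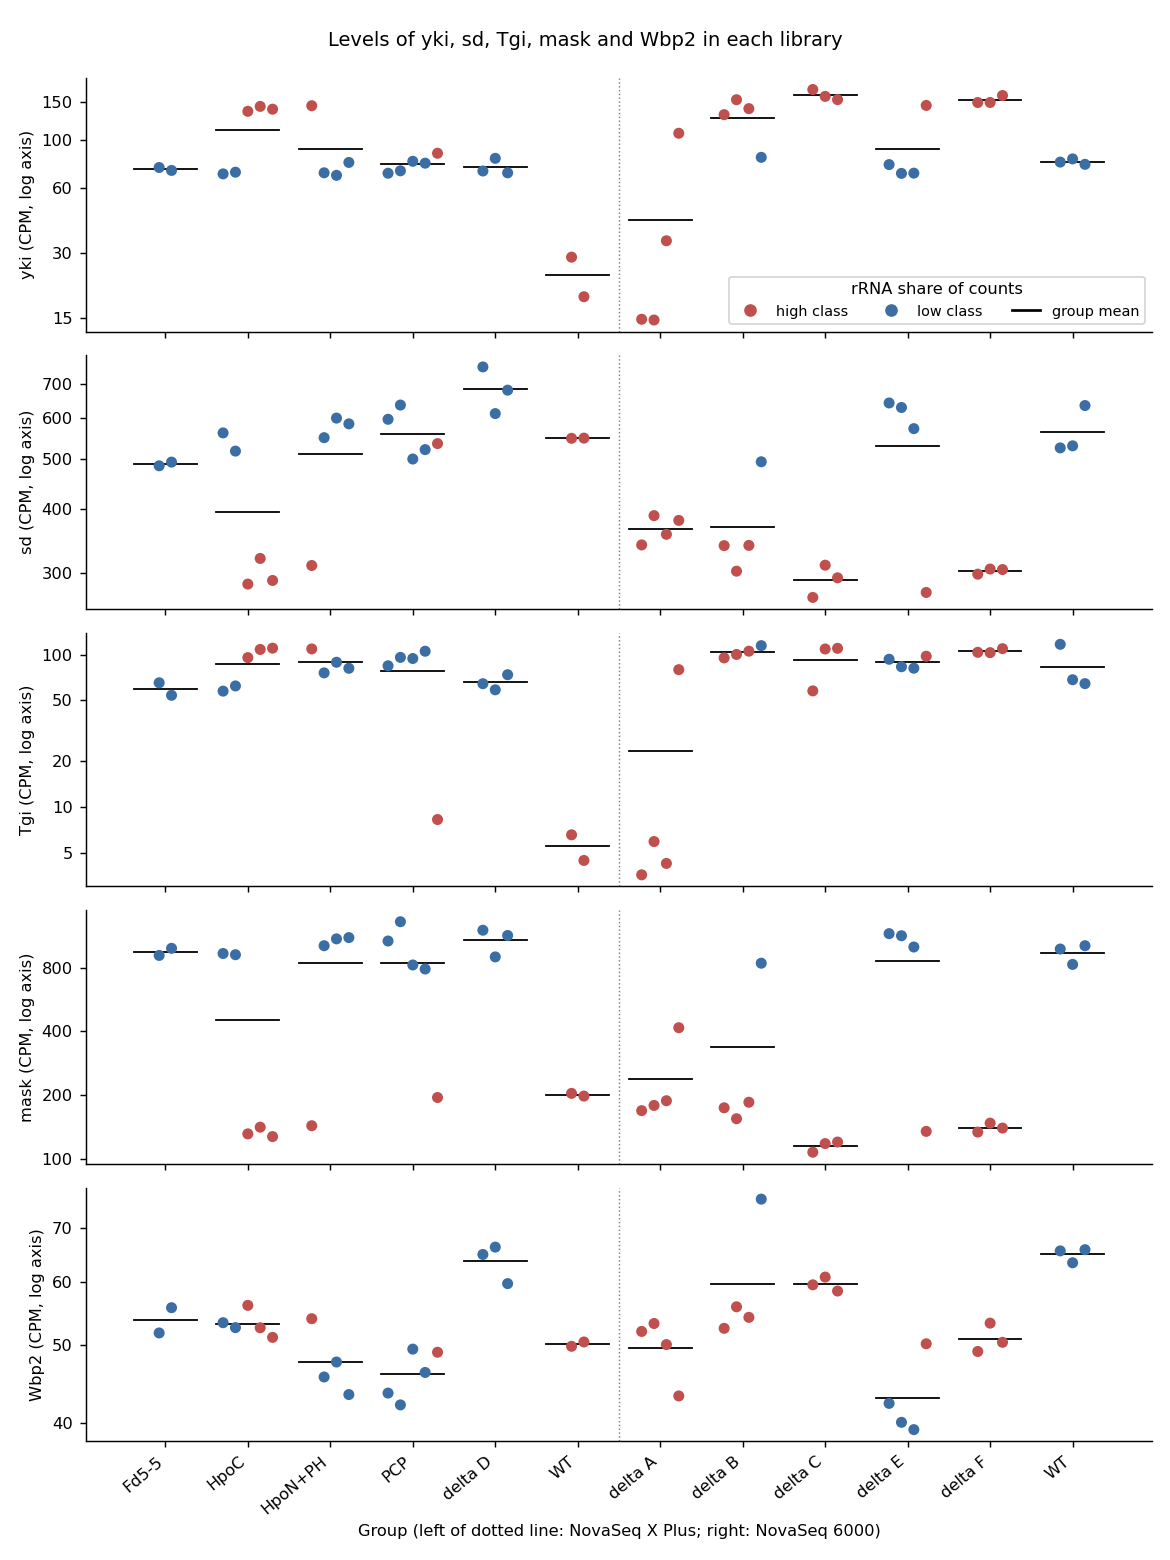
Level of yki, sd, Tgi, mask and Wbp2 in each library (CPM, log axis), by group, with mutants left of the WT of their sequencer. Red points are high-class and blue points low-class libraries (3% rRNA), and bars are group means. Tgi is at 8.24 CPM or less in both WT libraries of the X Plus, in 1 PCP library and in 3 delta A libraries, and mask separates into a high-class and a low-class level within HpoC, HpoN+PH, PCP, delta B and delta E.

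The WT libraries were themselves unlike on these genes. Yki RNA was at 28.7 and 18.9 CPM in the WT of the X Plus, against 78.9, 81.6 and 77.1 CPM in the WT of the 6000. Tgi was at 6.539 and 4.44 CPM in the WT of the X Plus, against 117, 68.3 and 64.4 CPM in the WT of the 6000. The groups did not overlap for either gene, and the WT of the X Plus was lower. How many of all genes lack overlap was not counted, here or in the comparisons below, so non-overlap only describes the values. The log2 difference was −1.73 ± 0.53 for yki (SE, edgeR adjusted p = 0.0206) and −3.92 ± 0.93 for Tgi (edgeR adjusted p = 0.00551). Wbp2 was also lower in the WT of the X Plus, by a log2 difference of −0.37 ± 0.13 (edgeR adjusted p = 0.0377). These 3 of 5 genes compare with 24.7% of all genes that differed between the WT groups, where 11% of all genes were lower and 13.7% higher in the WT of the X Plus. Mask was at 204 and 198 CPM in the WT of the X Plus, against 979, 828 and 1015 CPM in the WT of the 6000, which did not overlap but missed the threshold (edgeR adjusted p = 0.0683). Without either WT library of the X Plus, 0 of the 5 genes passed (edgeR adjusted p for yki 0.0763 and 0.186), and the Wbp2 call was lost without any 1 of the 5 WT libraries (edgeR adjusted p from 0.0632 to 0.172). Sequencer, run and rRNA class all differ between the WT groups and cannot be told apart.

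The coactivator yki was higher in all 5 mutants of the X Plus than in their WT. Fd5-5 had 74.5 and 72.2 CPM, against 28.7 and 18.9 CPM in WT. HpoC had 69.6, 70.9, 135, 143 and 138 CPM, and HpoN+PH had 144, 70.4, 68.6 and 78.6 CPM. PCP had 70.1, 71.9, 79.6, 78.0 and 86.7 CPM, and delta D had 71.8, 82.1 and 70.4 CPM. No mutant library of the X Plus fell within the range of that WT, and the values of 135 CPM and more in HpoC and HpoN+PH are those of their 4 high-class libraries. With so few libraries such separation says little. In Fd5-5, sd and Wbp2 did not overlap the WT either, and neither passed (edgeR adjusted p = 0.708 and 0.606). The log2 difference was 1.62 ± 0.38 in Fd5-5 (edgeR adjusted p = 0.0194), 2.22 ± 0.35 in HpoC (adjusted p = 8.13e-04), 1.92 ± 0.35 in HpoN+PH (adjusted p = 0.00308), 1.69 ± 0.34 in PCP (adjusted p = 0.00673) and 1.64 ± 0.36 in delta D (adjusted p = 0.00685). Without WT library 2 of the X Plus, 0 of these 5 calls held, with log2 differences of 1.35 to 1.95 and edgeR adjusted p of 0.0642 to 0.279. The Fd5-5 call was lost without any 1 of its 4 libraries (edgeR adjusted p from 0.0667 to 0.270).

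Yki and Tgi were the members called in each X Plus comparison, both higher and none lower. The 2 of 5 genes compare with 3.7% of all genes tested that rose in Fd5-5, 3.04% in HpoC, 3.76% in HpoN+PH, 3.53% in PCP and 11.2% in delta D. The shares that fell were 0.77% in Fd5-5, 0.78% in HpoC, 1.09% in HpoN+PH, 0.0835% in PCP and 15.3% in delta D. In either direction 4.47% of genes passed in Fd5-5, 3.82% in HpoC, 4.84% in HpoN+PH, 3.61% in PCP and 26.5% in delta D. The median log2 difference of all genes lay between −0.05 and 0.03 in these comparisons.

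On the 6000, no mutant passed the test for yki, and the direction was not shared. Delta A had 14.8, 14.7, 34.2 and 107 CPM, against 78.9, 81.6 and 77.1 CPM in WT. Delta B had 131, 153, 139 and 83.0 CPM, delta C 171, 159 and 153 CPM, and delta F 149, 149 and 160.2 CPM. Delta E had 76.8, 69.98, 70.2 and 144 CPM. The libraries of delta B, delta C and delta F lay above all 3 WT libraries, and those of delta A and delta E lay on both sides. The log2 difference was −0.91 ± 0.49 in delta A, 0.65 ± 0.50 in delta B, 0.996 ± 0.54 in delta C, 0.17 ± 0.50 in delta E and 0.88 ± 0.53 in delta F, with edgeR adjusted p from 0.109 to 0.889. Without delta A library 4, the one at 107 CPM, the delta A difference was −1.95 and passed (edgeR adjusted p = 2.24e-04). A fit of the 2 groups alone called yki in delta C and delta F, at log2 differences of 0.99 and 0.91, and 1 fit of all 42 libraries called it in delta C (1.02, edgeR adjusted p = 0.0480). In delta A, yki was called lower when the trend of level with transcript length was removed, and with the replicate number as a block.

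Within 1 rRNA class the yki differences on the X Plus were as large. The WT there is of the high class, which leaves 3 libraries of HpoC and 1 each of HpoN+PH and PCP, and the lone libraries are assumed to vary like the other groups. The fit rests on 7 libraries in 4 groups. Inside the class the rRNA share still differed, at 17.1 and 17.4% in WT, 8.88 to 11.7% in HpoC, 11.7% in HpoN+PH and 16.1% in PCP. The share was thus not held fixed for HpoC and HpoN+PH. Yki was then higher by a log2 difference of 2.57 ± 0.16 in HpoC (edgeR adjusted p = 5.84e-06), 2.62 ± 0.18 in HpoN+PH (adjusted p = 2.00e-05) and 1.87 ± 0.18 in PCP (adjusted p = 0.00120). On the 6000, where the WT is of the low class, the only delta B library of that class and the 3 of delta E gave 0.06 ± 0.09 and −0.15 ± 0.07 for yki, and neither passed (edgeR adjusted p = 0.838 and 0.187). Fd5-5, delta D, delta A, delta C and delta F have no library in the class of their WT, so for them rRNA class and genotype cannot be told apart.

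**Figure D2:**
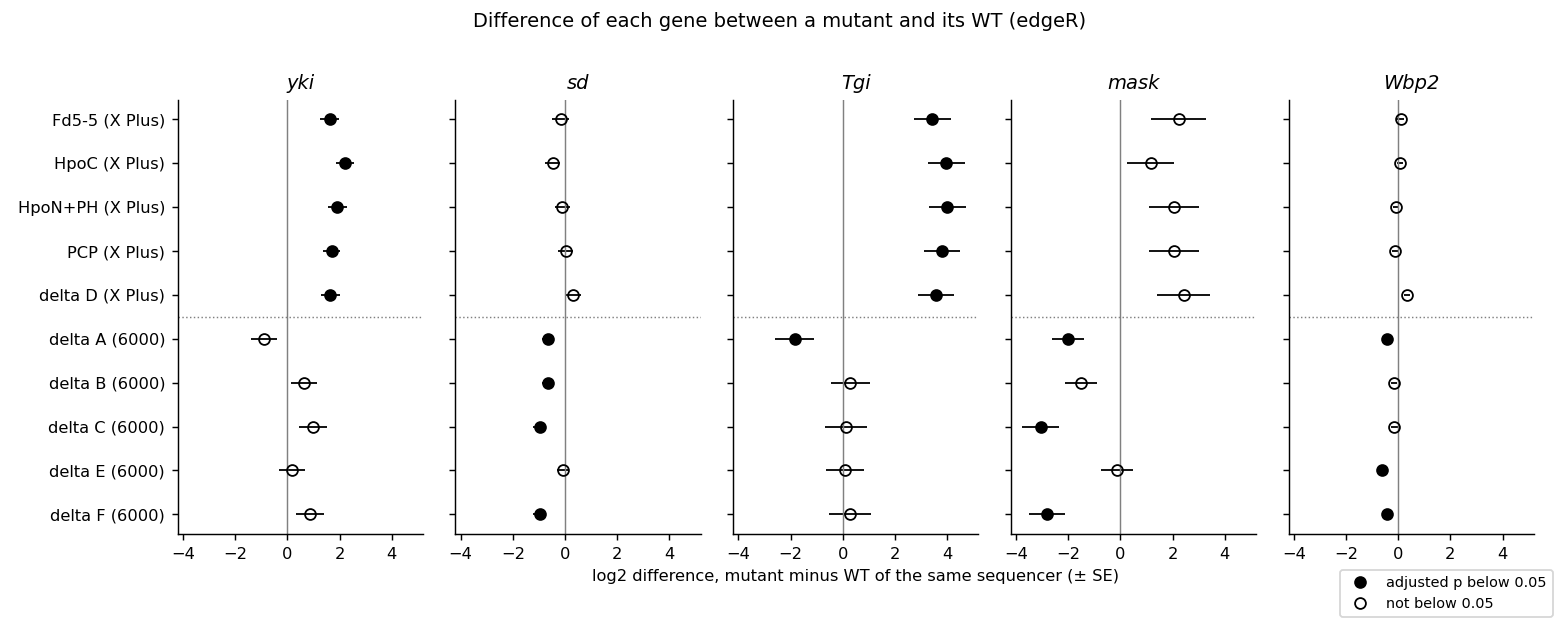
Log2 difference of each gene between a mutant and the WT of its sequencer, with the standard error as bars (edgeR, all libraries). Filled points have an adjusted p below 0.05. Yki and Tgi are filled and above 0 in the 5 mutants of the X Plus (above the dotted line), while sd, mask and Wbp2 are filled only below 0 and only in mutants of the 6000.

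The DNA-binding partner sd differed from WT in 4 mutants of the 6000 and in none of the X Plus. Delta A had 341, 388, 357 and 380.1 CPM, against 525, 530.2 and 635 CPM in WT. Delta B had 339.6, 303, 339.97 and 494 CPM, delta C 269.5, 311 and 294 CPM, and delta F 299, 306 and 305 CPM. All libraries of these 4 mutants lay below the lowest WT library. Sd was lower by a log2 difference of −0.66 ± 0.23 in delta A (edgeR adjusted p = 0.0222), −0.64 ± 0.23 in delta B (adjusted p = 0.0439), −0.98 ± 0.25 in delta C (adjusted p = 0.00268) and −0.96 ± 0.25 in delta F (adjusted p = 0.00494). Delta E, with 642, 629, 573 and 276 CPM, overlapped the WT and had a difference of −0.09 ± 0.23 (edgeR adjusted p = 0.864). The lowest delta E library and the highest delta B library were the ones outside the main rRNA class of their groups. Leaving out any 1 of delta B libraries 1 to 3 or any WT library of the 6000 ended the delta B call, and leaving out delta A library 1 or WT library 3 of the 6000 ended the delta A call (edgeR adjusted p = 0.0537 and 0.0859). When the trend of level with transcript length was removed per library, sd was higher in delta A (0.44) and delta C (0.71), and lower in Fd5-5 (−1.37), HpoN+PH (−0.97) and delta D (−0.89), all past the threshold, so the direction for sd depends on that scaling.

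On the X Plus the level of sd differed between the rRNA classes inside HpoC and HpoN+PH, but not inside PCP, where the high-class library lay within the low-class range. HpoC had 562 and 518 CPM in its low-class libraries and 286, 321 and 291 CPM in its high-class ones, against 548 and 549 CPM in WT. HpoN+PH had 311 CPM in its high-class library and 549.9 to 600.1 CPM in the other 3. PCP had 499.9 to 636 CPM, with the high-class library at 536 CPM. The whole groups gave log2 differences from −0.48 to 0.31 over the 5 mutants, with edgeR adjusted p from 0.430 to 0.970. Within the high class, sd was lower than in WT by −0.84 ± 0.08 in HpoC (edgeR adjusted p = 6.42e-05) and −0.78 ± 0.11 in HpoN+PH (adjusted p = 9.77e-04), while PCP differed by −0.02 ± 0.10 (adjusted p = 1.0).

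The corepressor gene Tgi had the widest range of the 5. On the X Plus, Fd5-5 had 65.2 and 54.0 CPM, against 6.539 and 4.44 CPM in WT. HpoC had 57.5, 62.2, 95.4, 108 and 110.1 CPM, and HpoN+PH 109, 75.7, 88.9 and 81.2 CPM. PCP had 84.3, 95.8, 94.1, 105 and 8.24 CPM, and delta D had 64.3, 58.6 and 73.7 CPM. No mutant library lay within the range of the WT, and PCP library 5, of the high class, was the one closest to it. The log2 difference was 3.43 ± 0.72 in Fd5-5 (edgeR adjusted p = 0.00920), 3.97 ± 0.70 in HpoC (adjusted p = 0.00186), 4.003 ± 0.70 in HpoN+PH (adjusted p = 0.00209), 3.81 ± 0.69 in PCP (adjusted p = 0.00322) and 3.57 ± 0.70 in delta D (adjusted p = 0.00335). Without WT library 2 of the X Plus, the differences were 3.18 to 3.76 and 0 of the 5 passed (edgeR adjusted p from 0.0806 to 0.182). Without WT library 1, Fd5-5 (0.0856) and PCP (0.0582) did not pass. A fit of PCP and WT alone also lost the PCP call, at 3.82 (edgeR adjusted p = 0.183), and the rRNA covariate lost the Fd5-5 call, at 3.12 (adjusted p = 0.0880).

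Within the high class, Tgi was higher than in WT by a log2 difference of 4.26 ± 0.15 in HpoC (edgeR adjusted p = 2.65e-07) and 4.32 ± 0.17 in HpoN+PH (adjusted p = 6.32e-07). PCP library 5 alone gave 0.58 ± 0.20, which did not pass (edgeR adjusted p = 0.401). In the same library yki, at 86.7 CPM, was above both WT libraries and passed, so yki and Tgi, which were called together in the whole PCP group, parted in its high-class library, which over all genes was closer to the WT (rho 0.989) than to the rest of PCP (0.919).

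On the 6000, delta A had 3.57, 5.90, 4.24 and 79.5 CPM of Tgi, against 117, 68.3 and 64.4 CPM in WT. Libraries 1 to 3 of delta A were below every WT library, and library 4 lay inside the WT range. Tgi was lower in delta A by a log2 difference of −1.84 ± 0.75 (edgeR adjusted p = 0.0428), and by −4.24 without library 4 (adjusted p = 1.08e-08). The call was lost without any 1 of the other 6 libraries (edgeR adjusted p from 0.0591 to 0.127). Delta B had 95.0, 100.1, 105 and 114 CPM, delta C 57.7, 109 and 109.8 CPM, delta E 93.1, 83.1, 81.3 and 97.5 CPM, and delta F 103, 103 and 109 CPM. All 4 overlapped the WT, with log2 differences from 0.09 to 0.30 and edgeR adjusted p from 0.764 to 0.967. Over both sequencers, 6 libraries had less than 10 CPM of Tgi, at 3.57 to 8.24 CPM, and all were of the high class (both WT libraries of the X Plus, PCP 5 and delta A 1 to 3). The other 36 had 54.0 to 117 CPM, with no library in between. The 6 libraries had rRNA shares of 13.9 to 17.4%, and delta A library 4, at 79.5 CPM, had a share of 15.0%, within that range.

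**Figure D3:**
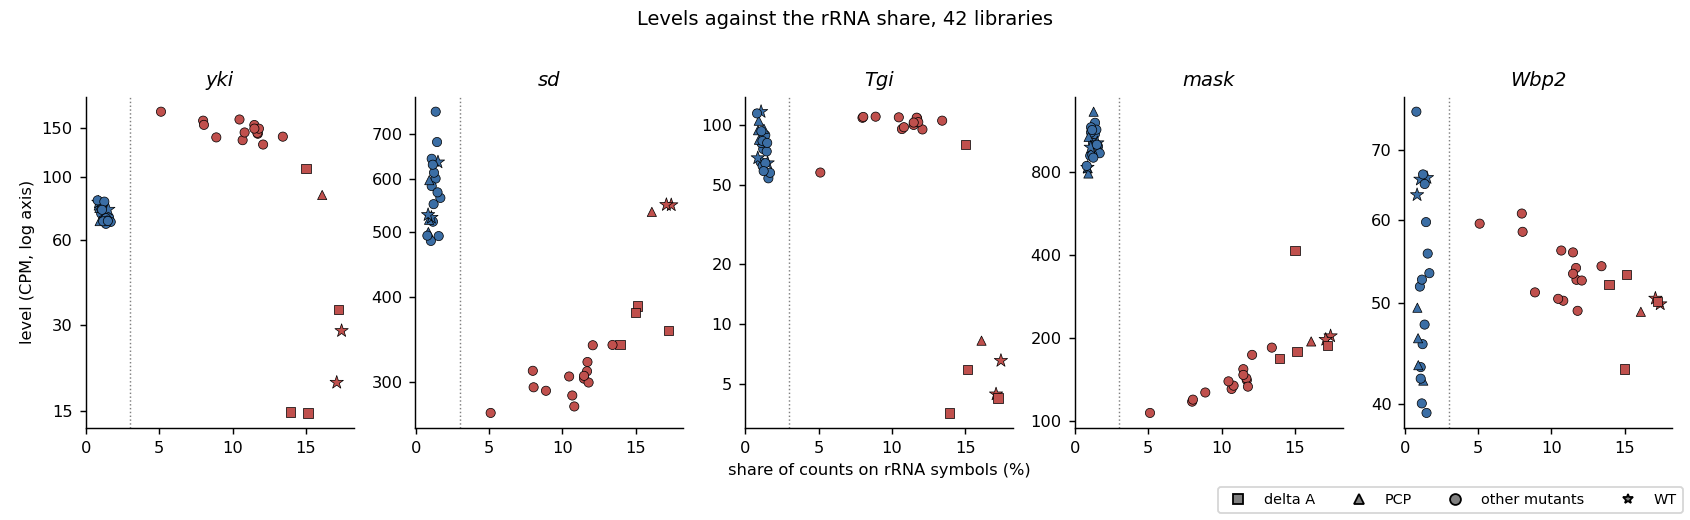
Level of each gene (CPM, log axis) against the share of counts on rRNA symbols (%) in 42 libraries. Squares are delta A, triangles PCP, stars WT and circles the other mutants, red for the high and blue for the low class. High-class libraries of delta A, PCP and WT lie below those of the other mutants for yki and, except for delta A library 4, for Tgi, while mask of every high-class library lies below every low-class library.

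The level of mask, the member with the longest transcript, separated the rRNA classes in every group that held both. Low-class libraries had 788 to 1317 CPM (median 1001 CPM, n = 21), and high-class libraries had 107 to 416 CPM (median 147 CPM, n = 21), with no overlap. On the X Plus, Fd5-5 had 913 and 986 CPM and delta D 1201, 899 and 1134 CPM, against 204 and 198 CPM in WT. HpoC had 932 and 920.2 CPM in its low-class libraries and 131, 141 and 127 CPM in the others. HpoN+PH had 143 CPM in its high-class library and 1015, 1093 and 1108.5 CPM in the rest. PCP had 195 CPM in library 5 and 788 to 1317 CPM in libraries 1 to 4. Each high-class library of HpoC, HpoN+PH and PCP was below both WT libraries, and each low-class library was above them. The whole groups had log2 differences of 1.16 to 2.42, none of which passed (edgeR adjusted p from 0.0741 to 0.615). With the trend of level with transcript length removed per library, they were 0.56 in Fd5-5, 0.33 in HpoC, 0.66 in HpoN+PH, 0.68 in PCP and 0.79 in delta D, and none passed (edgeR adjusted p from 0.0879 to 0.601).

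Within the high class the direction for mask was the opposite one. Mask was lower than in WT by −0.55 ± 0.07 in HpoC (edgeR adjusted p = 4.51e-04) and by −0.45 ± 0.10 in HpoN+PH (adjusted p = 0.00968), and PCP differed by −0.03 ± 0.10 (adjusted p = 1.0). In this class 46.4% of all genes were called in HpoC, 35.5% in HpoN+PH and 2.2% in PCP, so the 4 of 5 members called in HpoC and in HpoN+PH (yki and Tgi higher, sd and mask lower) stand against many genes called. With the rRNA share as a covariate the log2 differences of mask ran from −0.86 to −0.35 over the 5 mutants of the X Plus, and none passed.

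On the 6000, mask was lower in 3 mutants. Delta A had 169, 179, 188 and 416 CPM, delta C 107, 118 and 119.9 CPM, and delta F 134, 147 and 139.6 CPM, against 979, 828 and 1015 CPM in WT. Every library of these mutants was below the lowest WT library. The log2 difference was −2.01 ± 0.61 in delta A (edgeR adjusted p = 0.0113), −3.06 ± 0.71 in delta C (adjusted p = 0.00135) and −2.81 ± 0.70 in delta F (adjusted p = 0.00415). With the length trend removed mask was still called lower in these 3, by smaller differences of −0.88 in delta A, −0.84 in delta C and −0.85 in delta F (edgeR adjusted p from 0.00550 to 0.00970). Delta B had 174, 155, 185 and 839 CPM, the last in its low-class library, and −1.50 ± 0.61 did not pass (edgeR adjusted p = 0.0631), though without library 4 it was −2.49 and passed (adjusted p = 0.00128). Delta E had 1157, 1131, 1001 and 135 CPM, and −0.13 ± 0.61 did not pass (adjusted p = 0.930). With the rRNA share as a covariate, mask remained lower and called in delta C at −1.26 ± 0.44 (edgeR adjusted p = 0.0309), was at 0.55 ± 0.50 in delta A and −0.56 ± 0.48 in delta F, and neither of these passed.

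Wbp2 was the steadiest gene of the set, at 39.3 to 76.1 CPM over all libraries, and was lower in 3 mutants of the 6000. Delta E had 42.3, 40.1, 39.3 and 50.2 CPM, against 65.6, 63.4 and 65.8 CPM in WT. Delta A had 52.1, 53.3, 50.1 and 43.2 CPM and delta F 49.1, 53.3 and 50.5 CPM. No library of these 3 mutants reached the WT. Wbp2 differed on the log2 scale by −0.61 ± 0.12 in delta E (edgeR adjusted p = 0.00747), −0.42 ± 0.12 in delta A (adjusted p = 0.00772) and −0.42 ± 0.13 in delta F (adjusted p = 0.0121). Delta B had 52.5, 55.9, 54.2 and 76.1 CPM and delta C 59.5, 60.9 and 58.5 CPM, and neither passed (−0.15 ± 0.12 and −0.15 ± 0.13, edgeR adjusted p = 0.328 and 0.315).

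The lower Wbp2 in delta E was also measured in libraries of 1 rRNA class. The 3 low-class delta E libraries had 39.3 to 42.3 CPM and the WT, of the same class, 63.4 to 65.8 CPM, a log2 difference of −0.69 ± 0.07 (edgeR adjusted p = 0.00308), in a fit that called 14.4% of all genes. With the rRNA share as a covariate it was −0.56 ± 0.11 (adjusted p = 0.00596), while the differences in delta A (−0.25 ± 0.16) and delta F (−0.27 ± 0.15) did not pass. It passed without each of the 7 libraries in turn. A fit of those 2 groups alone did not call it, at the same −0.61. On the X Plus no mutant passed for Wbp2. Delta D was highest, with 64.9, 66.3 and 59.7 CPM against 49.9 and 50.5 CPM in WT (0.34 ± 0.12, edgeR adjusted p = 0.0516), and the other 4 had differences from −0.13 to 0.09. Of 11 alternative fits, 8 called Wbp2 higher in delta D, and these 8 called 4.75 to 71.5% of all genes there. Of the 5 fits without 1 library, 0 called it (edgeR adjusted p from 0.0807 to 0.2).

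**Figure D4:**
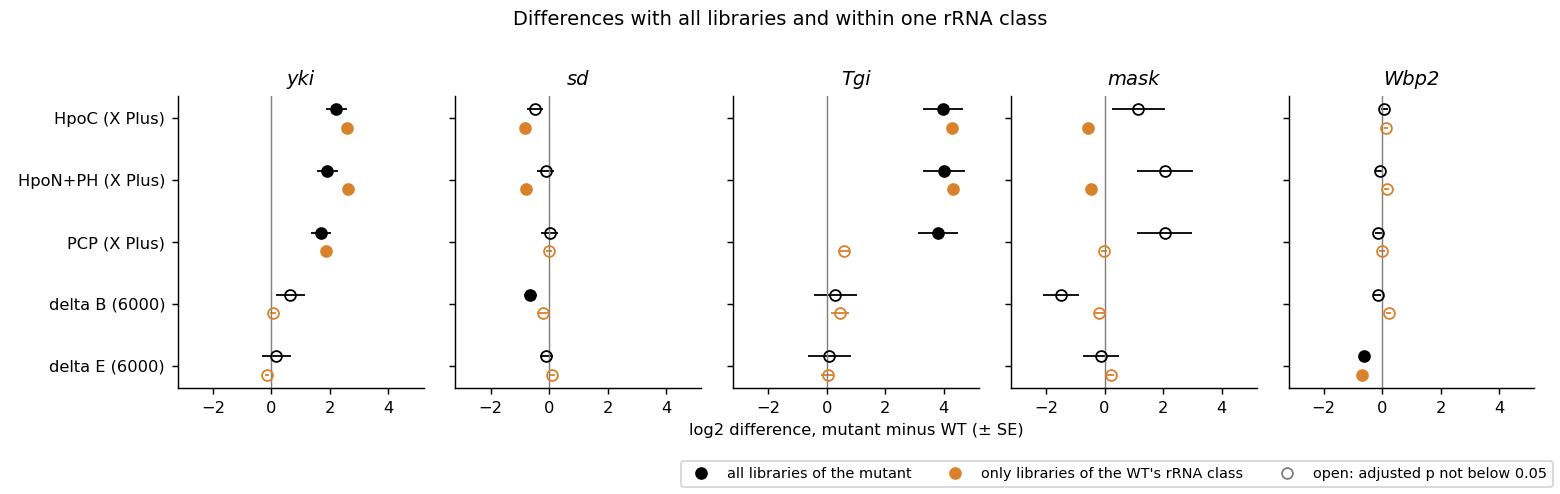
Log2 difference from WT (± SE) with all libraries of the mutant (black) and with only the libraries in the rRNA class of the WT (orange), for the 5 mutants that have such libraries. Open points have an adjusted p not below 0.05. The orange libraries of HpoC and HpoN+PH had 8.88 to 11.7% rRNA, against 17.1 and 17.4% in their WT. In HpoC and HpoN+PH the mask points lie on opposite sides of 0 and the yki and Tgi points on the same side, and Wbp2 in delta E is filled and below 0 in both fits.

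In the 6000 comparisons, the members called are to be read against large shares of all genes. Delta A had 4 of 5 members called, all lower, and 58.4% of genes passed there (28.1% lower, 30.4% higher). Delta C had 2, both lower, with 65.8% of genes called (32% lower, 33.8% higher), and delta F had 3, all lower, with 56.7% called (28.5% lower, 28.2% higher). Delta B had 1, sd, with 32.2% called (12.8% lower, 19.4% higher). Delta E had 1, Wbp2, where 5.13% were called (2.24% lower, 2.88% higher).

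With the rRNA share of each library as a covariate in the edgeR fits, yki was called higher in all 5 mutants of the X Plus and Tgi in all but Fd5-5. Sd was called lower in HpoC and Wbp2 higher in delta D. The share of all genes called was 2.03% in Fd5-5, 5.76% in HpoC, 3.6% in HpoN+PH, 2.15% in PCP and 4.75% in delta D. On the 6000, mask in delta C and Wbp2 in delta E were the members called, with 2.5% of genes called in delta A, 0.126% in delta B, 39.6% in delta C, 7.03% in delta E and 0.358% in delta F. Between the WT groups yki and Tgi were called lower in the WT of the X Plus, and 3.04% of genes were called. No library had a share between 1.68 and 5.11%. The covariate was 1 straight-line term in the log2 share. Yki was at 68.6 to 83.0 CPM in the low class, at 131 to 171 CPM in libraries of 5.11 to 13.4% rRNA and at 14.7 to 107 CPM in those of 13.9 to 17.4%. A straight line cannot follow such levels, so whether the calls hold apart from the rRNA share was not tested.

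Without the 6 libraries in the smaller rRNA class of their group, yki and Tgi were called higher in all 5 mutants of the X Plus. Mask was called higher in Fd5-5, HpoN+PH, PCP and delta D, whose remaining libraries are of the low class, and lower in HpoC, whose remaining libraries are of the high class. In these fits 57% of all genes were called in Fd5-5, 27.9% in HpoC, 58.8% in HpoN+PH, 57.6% in PCP and 63.9% in delta D. On the 6000 the shares were 69.7% in delta A, 64.4% in delta B, 72.4% in delta C, 15.8% in delta E and 66.7% in delta F, with sd and mask called lower in delta A, B, C and F. Within the class of the WT, 0% of genes were called in delta B.

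Ratios between the genes inside a library do not depend on the scaling between libraries. They do take up any trend of level with transcript length, and the longest transcripts of mask and yki have 14423 and 1525 bases. Removing that trend made the mask differences on the X Plus smaller, as given above. The ratios here were not corrected for it. The log2 ratio of mask to yki was 3.34 to 4.19 in the 21 low-class libraries. In the 14 high-class libraries of HpoC, HpoN+PH, delta B, delta C, delta E and delta F it was −0.67 to 0.41, with yki at 131 to 171 CPM, sd at 269.5 to 339.97 CPM, Tgi at 57.7 to 110.1 CPM and mask at 107 to 185 CPM. In the 7 high-class libraries of delta A, PCP and the WT of the X Plus it was 1.17 to 3.60. The high-class libraries thus did not share 1 pattern of these genes, and their 14 and 7 libraries did not overlap in this ratio. They did not overlap in rRNA share either, at 5.11 to 13.4% in the 14 and 13.9 to 17.4% in the 7 libraries. The part of the rRNA share in this split was not tested. The log2 ratio of Tgi to yki was −0.49 to 0.56 in the low class, −1.56 to −0.33 in the 14 and −3.40 to −0.43 in the 7 libraries. Delta A library 4 had ratios of 1.96 for mask to yki and −0.43 for Tgi to yki, the second of which lay within the range of the 14 libraries. All these counts share a library and its depth, and the groups of 14 and 7 were formed after the values were seen.

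**Figure D5:**
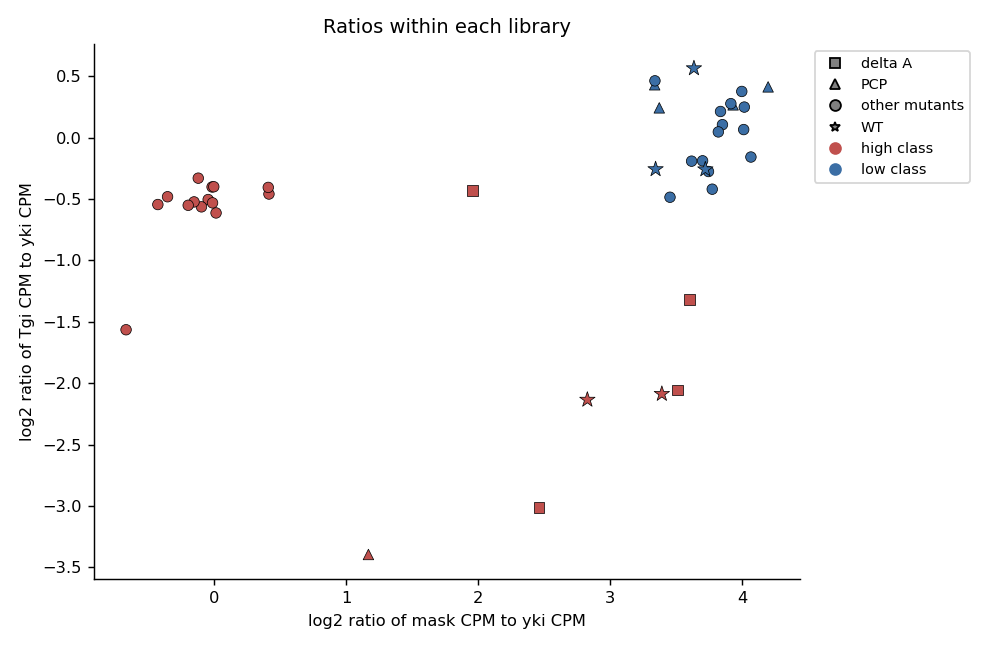
Log2 ratio of Tgi to yki against log2 ratio of mask to yki in each of 42 libraries, with squares for delta A, triangles for PCP, stars for WT and circles for the other mutants, red for the high and blue for the low class. The low-class libraries lie together at mask to yki ratios of 3.34 and more, and the high-class ones lie at 0.41 and less or, for delta A, PCP and WT, between 1.17 and 3.60. The ratios are not corrected for the trend of level with transcript length.

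Other transcription partners of Yorkie or Sd were vg, hth, tsh, tio, Mad and E2f1. Of these 6 genes 1 rose in each mutant of the X Plus, E2f1, the cell-cycle transcription factor. Mad fell in delta D, by −0.39 ± 0.14 (edgeR adjusted p = 0.0497). Of all genes 3.04 to 3.76% rose in Fd5-5, HpoC, HpoN+PH and PCP. In delta D 11.2% of all genes rose and 15.3% fell, and 1 of 6 is near both shares. E2f1 was at 268 ± 10.5 CPM in Fd5-5, 218 ± 55.7 CPM in HpoC, 227 ± 41.0 CPM in HpoN+PH, 233 ± 57.8 CPM in PCP and 318 ± 16.3 CPM in delta D, against 84.2 ± 12.3 CPM in WT (SD). Its log2 differences were 1.36 to 1.91 (edgeR adjusted p from 8.12e-04 to 0.00746), and it was also lower in the WT of the X Plus than in the WT of the 6000, by −1.83 ± 0.39 (adjusted p = 0.00283). On the 6000 the zinc-finger genes tsh and tio fell in delta A, delta C and delta F, tio to 15.8 ± 2.65 CPM in delta C, against 141 ± 8.99 CPM in WT (−3.18 ± 0.65, edgeR adjusted p = 5.87e-04). The number that fell was 3 of 6 in delta A, 1 in delta B, 4 in delta C, 0 in delta E and 3 in delta F, and 1 rose in delta C. Of all genes 28.1% fell in delta A, 12.8% in delta B, 32% in delta C, 2.24% in delta E and 28.5% in delta F, and 1 of 6 in delta B is near that share. The median log2 difference of the 6 ran from 0.18 to 0.75 on the X Plus and from −1.002 to −0.10 on the 6000.

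Of 9 chromatin coactivators used by Yorkie (Trl, brm, mor, osa, Snr1, Ncoa6, trr, Utx and nej), mor rose in every mutant of the X Plus. The gene mor encodes a core subunit of the Brahma chromatin-remodelling complex. Its level was 265 to 375 CPM as the mean of the 5 mutants, against 23.9 ± 6.10 CPM in WT, with log2 differences of 3.47 to 3.96 (edgeR adjusted p from 9.21e-05 to 2.90e-04). It too was lower in the WT of the X Plus than in the WT of the 6000, at 23.9 ± 6.10 and 360.4 ± 22.5 CPM. In delta D 4 of the 9 rose, among them brm, the ATPase of that complex, beside 11.2% of all genes. In Fd5-5, HpoC, HpoN+PH and PCP mor alone of the 9 passed, beside 3.04 to 3.76% of all genes that rose. On the 6000, 6 of 9 fell in delta A, delta C and delta F, 2 in delta B and 0 in delta E, and 1 rose in delta C and in delta F, beside 28.1, 32, 28.5, 12.8 and 2.24% of all genes that fell in delta A, C, F, B and E. The histone methyltransferase gene trr was at 6.39 ± 2.56 CPM in delta A and 5.13 ± 0.28 CPM in delta F, against 145 ± 7.69 CPM in WT. The list median was −1.73 in delta A and delta C, and −1.71 in delta F, where the median of all genes was −0.03 to 0.05.

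Among 14 cytoplasmic regulators of Yorkie, 0 passed in Fd5-5, HpoC, HpoN+PH and PCP by edgeR, where 3.61 to 4.84% of all genes passed. In delta D 3 rose and 1 fell, among them jub, whose product holds Wts at cell junctions (109.99 ± 4.002 CPM, against 72.2 ± 3.25 CPM in WT). Of all genes 11.2% rose and 15.3% fell in delta D, 26.5% in either direction, so these 4 of 14 are near the share of all genes. On the 6000, 6, 3, 8, 0 and 7 of the 14 fell in delta A, B, C, E and F, and 3, 1, 3, 0 and 3 rose. In either direction 58.4, 32.2, 65.8, 5.13 and 56.7% of all genes were called in these mutants. The 9 of 14 in delta A and 4 of 14 in delta B are thus near the share of all genes. The numbers in delta C and delta F are not far above it. Both ex and kibra, which encode upstream Hippo activators, are also targets of Yorkie. Ex was at 220 ± 62.8 CPM in delta A, 103 ± 5.49 CPM in delta C and 227 ± 21.1 CPM in delta F, against 1563 ± 96.99 CPM in WT. Of 14 listed targets 13 were tested, and 11 fell in delta A, 4 in delta B, 10 in delta C, 0 in delta E and 9 in delta F, with 0 higher, beside 28.1, 12.8, 32, 2.24 and 28.5% of all genes that fell in these mutants. On the X Plus 0 fell, and E2f1, which is on this list too, alone rose in Fd5-5, HpoC, HpoN+PH and PCP, with 3 of 13 in delta D. Of all genes 3.04 to 3.76% rose in Fd5-5, HpoC, HpoN+PH and PCP and 11.2% in delta D. All libraries of delta A, delta C and delta F and 3 of 4 of delta B were of the high class, against none of their WT, and the part of the rRNA class in these counts was not tested.

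By the smallest root mean square difference over the 12 group means of log2 level, each centred on its own mean, the genes closest to a member lay at 0.07 to 0.18. They were lark, UQCR-C1 and CG3894 for yki, CG8312, N and sstn for sd, and muc, Hakai and E5 for Tgi. For mask they were Mical, Rbcn-3A and sdk, and for Wbp2 they were MFS15, Rcc1 and CG1635. The members were less like each other. The nearest member to yki was Tgi and to Tgi was yki, at 0.65, mask lay nearest to sd, at 0.82, and sd and Wbp2, the closest pair, lay at 0.41. The middle of the 11294 genes lay at 0.97 from yki, 1.46 from Tgi and 1.21 from mask.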

How the data were processed

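RNA-seq of third-instar wing discs was analysed from the deposited table of estimated counts per gene in 42 libraries. The authors made these expected counts with Salmon on dm6, after FastQC 0.10 and Trimmomatic 0.33, per the submitters' processing notes, and 24.6% of the values were not whole. They were rounded. Total counts were 19538216 to 48392408 per library. Levels are CPM with TMM factors over all libraries.

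Differences were tested with edgeR 4.0.16 (R 4.3.3) quasi-likelihood tests after filterByExpr, with the libraries of a sequencer fitted together (10775 genes tested for the X Plus and 10338 for the 6000) and 1 fit of all libraries (11294 genes) between the WT groups. P-values were adjusted by Benjamini-Hochberg over all genes tested, at 0.05. The fits were also run on simulated counts without rRNA classes and of smaller spread than these libraries, so that run does not test them under the conditions here. The common coefficient of variation in the fits was 49.2% on the X Plus and 39.4% on the 6000. Alternatives used DESeq2 1.42.0, other filters and scalings, the rRNA share and left-out libraries. No replicate pair agreed within sampling noise. Replicate numbers did not pair libraries between groups. Gene positions are from Ensembl 115.

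The 5 genes and all gene lists were chosen with earlier results of these data known. The text names these 5 genes in every comparison, ft as the mutated gene, the 3 genes closest to each member, and of each list at most the 2 called genes of smallest p per comparison.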

Additional observations from a re-analysis of the deposited data

Results flagged for a closer look

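In 9 of 30 combinations of a gene and a group of 4 or 5 libraries, 1 library lay far from the others by Dixon's criterion, which chance meets in about 1 of 20. All 9 fell on HpoN+PH library 1, PCP library 5 and library 4 of delta A, delta B and delta E. Genes of 1 library share its scaling, so the combinations are not independent and the excess over chance cannot be read from their number. Yki was at 143.7 CPM in HpoN+PH library 1, against 68.55 to 78.61 CPM in the other 3, and at 144.1 CPM in delta E library 4, against 69.98 to 76.85 CPM. Mask was at 143.2 CPM in the same HpoN+PH library, against 1015 to 1109 CPM, and at 134.7 CPM in the same delta E library, against 1001 to 1157 CPM. These libraries had 11.69% and 10.82% rRNA and were the only ones of the high class in their groups.

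Delta B library 4, with 0.792% rRNA the only one of the low class in its group, had 839.1 CPM of mask, against 154.6 to 184.9 CPM, and 76.12 CPM of Wbp2, against 52.52 to 55.87 CPM. PCP library 5, with 16.11% rRNA the only one of the high class there, had 8.24 CPM of Tgi, against 84.33 to 105.1 CPM.

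Delta A library 4 had 79.52 CPM of Tgi, against 3.57 to 5.905 CPM in the other 3, and 416 CPM of mask, against 168.8 to 187.9 CPM. Its rRNA share of 15.01% lay within the range of the group. Over all genes PCP library 5 and delta B library 4 were closer to the WT of their sequencer than to their own groups, delta E library 4 was closer to delta F and HpoN+PH library 1 to HpoC, while delta A library 4 was closest to its own group (mean Spearman rho 0.9497, against 0.9467 with delta F). The part of the rRNA share or of this likeness in these 9 values was not tested.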

How the results depend on the processing

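Numbers of the 5 genes called moved as follows. In 1 fit of all 42 libraries they were 1 in Fd5-5, 0 in delta B and 4 in delta D. With the rRNA share as a covariate they were 1 in Fd5-5, 0 in delta A, B and F and 1 in delta C. Within the rRNA class of the WT they were 4 in HpoC and HpoN+PH, 1 in PCP and 0 in delta B. Without the smaller rRNA class of each group, an alternative chosen after seeing the data, they were 4 in HpoC, 3 in delta B and 5 in delta D. With only the groups compared they were 1 in PCP, 0 in delta B and E and 5 in delta D. DESeq2's Wald test called 4 in delta D and 2 in delta B, removing the length trend gave 4 in delta D, 0 in delta B and 5 between the WT groups, leaving out the libraries that stand apart gave 5 in delta D, and no filter gave 0 in delta B. Leaving out 1 library at a time gave 0 to 1 in Fd5-5, 0 to 2 in HpoC, HpoN+PH, PCP, delta D and between the WT groups, 2 to 5 in delta A and 0 to 3 in delta B, and the same 2, 1 and 3 in delta C, E and F. The cause was not tested.

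Log2 differences that changed sign were, with the covariate, mask in Fd5-5 (−0.58), HpoC (−0.86), HpoN+PH (−0.58), PCP (−0.62), delta D (−0.35), delta A (0.55), delta E (0.11) and between the WT groups (0.62), sd in PCP (−0.48), delta D (−0.27), delta A (0.17), delta E (0.039) and between the WT groups (0.65), Wbp2 in HpoN+PH (0.0096) and yki in delta E (−0.095). Within the class of the WT they were mask in HpoC (−0.55), HpoN+PH (−0.45), PCP (−0.026) and delta E (0.20), Wbp2 in HpoN+PH (0.15) and delta B (0.22), sd in PCP (−0.017) and delta E (0.11) and yki in delta E (−0.15). Without the smaller class they were mask in HpoC (−0.60) and delta E (0.23), sd in HpoN+PH (0.067) and delta E (0.13) and yki in delta E (−0.13). With the length trend removed they were Wbp2 in HpoN+PH (0.016) and sd in PCP (−0.83), delta D (−0.89), delta A (0.44), delta B (0.21), delta C (0.71), delta E (0.063), delta F (0.37) and between the WT groups (0.98). Without the libraries that stand apart they were sd in HpoN+PH (0.083) and PCP (−0.11). Leaving out 1 library gave sd −0.19 to 0.071 in HpoN+PH, −0.026 to 0.056 in PCP, −0.20 to 0.13 in delta E and −0.087 to 0.056 between the WT groups, Tgi −0.020 to 0.44 in delta C and −0.061 to 0.40 in delta E, yki −0.13 to 0.27 and mask −0.31 to 0.23 in delta E.

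With the replicate number as a block, Tgi in delta B (−0.047) and delta E (−0.24) and yki in delta E (−0.17) changed sign, and 5 genes were called in delta A and 3 in delta D. The numbers did not pair libraries: in 0 of 21 pairs of groups with 3 or more shared numbers did every correlation pass 0.1, and r ran from −0.668 to 0.406.

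Over the alternatives that leave out no single library in turn, the share of all genes called ran from 2.03 to 62.8% in Fd5-5, 2.43 to 46.4% in HpoC, 2.92 to 63.9% in HpoN+PH, 0.178 to 57.6% in PCP, 4.75 to 71.5% in delta D, 2.50 to 69.7% in delta A, 0 to 64.4% in delta B, 39.65 to 75.6% in delta C, 1.54 to 15.8% in delta E, 0.358 to 74.4% in delta F and 3.04 to 59.0% between the WT groups. Without WT library 2 of the X Plus it was 0.603% in Fd5-5, 0.917% in HpoC, 0.725% in HpoN+PH, 0.498% in PCP, 1.90% in delta D and 0.360% between the WT groups, and leaving out 1 library gave as little as 1.02% in delta B and 1.36% in delta E. Libraries that stand apart made up all of HpoC, delta B and delta E, and 5 mutants hold no library in the class of their WT, so these alternatives gave no value there. The 2 WT libraries of the X Plus limit every comparison on it.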
